A study of Macaca mulatta with 22 samples.

Results

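The 2-cell stage of rhesus macaque development was compared here with the stages on either side of it, the pronuclear and the 4-cell embryo. The comparison rests on 8 of the series' 22 libraries of single oocytes and embryos: 2 from 2-cell embryos (2C), 3 from pronuclear embryos (PN) and 3 from 4-cell embryos (4C). Each library is 1 embryo of Macaca mulatta, conceived by injecting a sperm into an oocyte and grown in culture. No group carries a treatment or a genetic change, and the labels name no animal, donor, sex or hour of collection. The p-values therefore reflect only how libraries of the same stage vary. That variation was estimated from all 22 libraries of the series, oocytes and later embryos included, and not from these 8 alone. Siblings among the embryos cannot be recognised. The table lists read counts scaled to gene length and library size (RPKM) for 35468 entries. Of these, 14312 reached 1 RPKM in at least 2 of the 22 libraries and were tested, and 91 of them differed between the 2-cell embryos and the mean of both neighbouring stages.

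The early primate embryo lives on RNA and protein stored in the oocyte, and its own genome becomes broadly active only some divisions later. During this time an mRNA can change in amount by decay, and it can change in what a poly(A)-primed library captures when its tail is lengthened or shortened in the cytoplasm. Libraries of this kind read both as a change of level and cannot tell them apart. In bulk libraries such as these, RPKM is also a share of all RNA read, not an amount per embryo.

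The 8 libraries held an estimated 7.28 M to 14.49 M reads each, and 8094 to 9784 entries reached 1 RPKM in them. Across the tested entries the 2C libraries correlated with each other at 0.903 (Pearson's r of log2(RPKM + 1), across genes, which are not replicates), PN libraries at 0.894 to 0.956 and 4C libraries at 0.920 to 0.939. Between stages the range was 0.868 to 0.930 for PN with 2C and 0.881 to 0.921 for 2C with 4C. The 2C libraries were thus about as far from each other as from libraries of the neighbouring stages, but not equally so. With PN and 4C libraries, 2C library 1 correlated at 0.868 to 0.930, on both sides of that 0.903. For 2C library 2 the range was 0.881 to 0.894, all below it. The 2C libraries also differed in scale: their median-of-ratios factors were 1.38 and 0.841, while those of the other 6 lay between 1.002 and 1.47. The median log2 difference of all tested entries was -0.06.

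Against the mean of PN and 4C, 31 entries were higher in 2C and 60 were lower (limma on log2(RPKM + 1), Benjamini-Hochberg adjusted p under 0.05), which is 0.217% and 0.419% of the entries tested, or 0.636% in all. At an unadjusted p under 0.05 there were 1237 (8.64%). Log2 differences of the called entries ran from 1.29 to 5.72 among the higher (median 2.13) and from -1.39 to -5.66 among the lower. In each of the 91, both 2C libraries lay outside the range of the 6 others, which was so for 470 entries above the range (3.28%) and 779 below it (5.44%) among all tested, 8.73% together. Taken 1 neighbour at a time, 67 entries (0.468%) differed between 2C and PN, 18 higher (0.126%) and 49 lower (0.342%) in 2C. Between 2C and 4C there were 82 (0.573%), 28 higher (0.196%) and 54 lower (0.377%) in 2C. The 2C libraries are shared by these comparisons. Between 4C and PN, which share none, 14 differed (0.0978%), 7 in each direction (0.0489% each). The count depended on single libraries: without 2C library 1 there were 67 higher and 60 lower, and without 2C library 2 there were 32 higher and 19 lower. With 1 such library left, that embryo is assumed to vary as the other stages do.

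**Figure D1:**
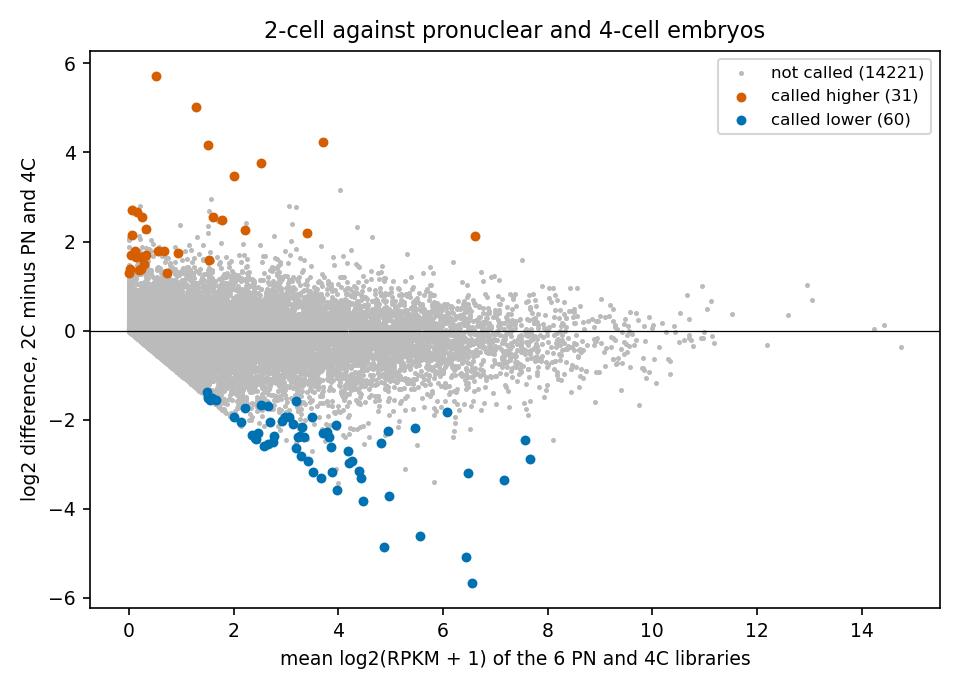
Each point is 1 of 14312 tested entries, with the mean log2(RPKM + 1) of the 6 PN and 4C libraries on the horizontal axis and the log2 difference of 2C from both neighbours on the vertical axis. The 31 entries called higher are mostly low in PN and 4C, and the 60 called lower follow the lower edge, where 2C values are near 0.

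The clearest rise was that of VTCN1, which encodes B7-H4, a surface protein of the B7 family that restrains T cells. Its values were 2.03, 0.749 and 5.57 RPKM in the PN libraries, 70.6 and 85.9 in 2C, and 0.320, 0.461 and 2.00 in 4C. Both 2C embryos were far above all 6 others. The mean over the 2C libraries was 42.2-fold that over the 6 neighbours, with a log2 difference of 5.03 (SE 0.479, adjusted p = 2.94e-05). VTCN1 lies on chromosome 1 at 120117050 to 120188172 as the table lists it; the file does not name the build of its positions. It kept its call under every one of the 17 alternative settings tried, among them each of the 8 libraries left out in turn and a fit of these 8 alone.

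CSH-2 belongs to the chorionic somatomammotropin genes, placental hormones related to growth hormone. It read 10.2, 0 and 3.69 RPKM in PN, 47.1 and 54.2 in 2C, and 3.39, 0.0760 and 1.20 in 4C. Its log2 difference was 4.17 (SE 0.714, adjusted p = 0.00637), and without 2C library 2 the adjusted p was 0.109. Genes of this family are near copies of one another and their entries overlap in the table, so it is uncertain which copy the reads came from. ACBD3, a Golgi protein that binds acyl-CoA and recruits other proteins to the membrane, read 12.7, 13.4 and 10.5 RPKM in PN, 58.2 and 37.8 in 2C, and 4.94, 8.00 and 10.1 in 4C. The 2C mean was 4.82-fold the mean of the 6, and both 2C embryos were above them. Its log2 difference was 2.19 (SE 0.431, adjusted p = 0.0180). Left out in turn, 2C libraries 1 and 2 gave an adjusted p of 0.157 and 0.0780.

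Among entries whose identifiers start with IMMRNTR, whose names come from the file and could not be checked, 3 are named, those with the largest log2 differences among the called entries with a 2C mean of at least 10 RPKM. IMMRNTR4201 on chromosome 3 read 0.254, 1.38 and 0 RPKM in PN, 16.8 and 316 in 2C, and 0.554, 0.133 and 0.621 in 4C. The 2C embryos were both high but 1 was far above the other, and without 2C library 2 the log2 difference went from 5.72 to 3.64 (adjusted p = 0.0878). The file gives it the name LINC00923, which 10 further entries on other chromosomes or positions also carry, so the name says little. IMMRNTR4336 read 6.83, 6.69 and 5.58 RPKM in PN, 55.7 and 33.8 in 2C, and 1.19, 3.15 and 0.191 in 4C, with a log2 difference of 3.46 (SE 0.493, adjusted p = 0.00125). FLJ43663 (IMMRNTR3902) was the most even of them: 1.52, 2.51 and 1.73 RPKM in PN, 18.5 and 15.3 in 2C, and 2.86, 1.72 and 2.23 in 4C. Its 2C mean was 8.07-fold that of the neighbours (log2 difference 2.54, SE 0.350, adjusted p = 8.04e-04), and it kept its call under every setting.

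**Figure D2:**
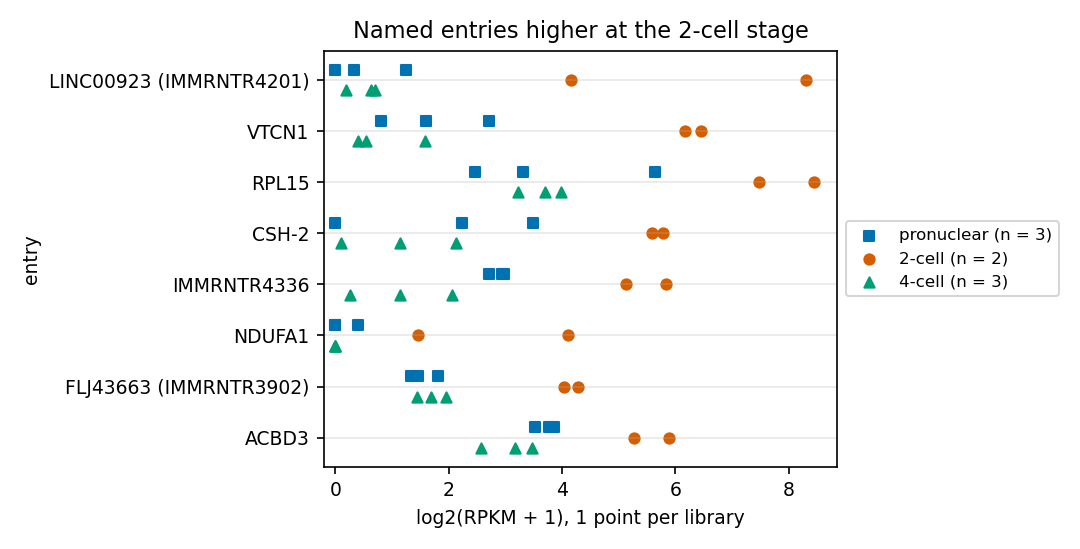
Points are single libraries on a log2(RPKM + 1) axis for the 8 named entries called higher in 2C: squares PN (n = 3), circles 2C (n = 2), triangles 4C (n = 3). In every row both circles lie to the right of all squares and triangles, and the 2 circles are farthest apart in IMMRNTR4201 (16.8 and 316 RPKM) and NDUFA1.

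RPL15 and NDUFA1 each have more than 1 entry in the table, and the entry that was higher in 2C was not the one of ordinary gene length. RPL15 encodes a protein of the large ribosomal subunit. Its chromosome 11 entry spans 771 bp and read 8.89, 48.9 and 4.49 RPKM in PN, 177 and 345 in 2C, and 14.7, 11.9 and 8.32 in 4C (log2 difference 4.24, SE 0.663, adjusted p = 0.00310). The chromosome 2 entry of RPL15 spans 3784 bp and went the other way in value, with 251, 325 and 218 RPKM in PN, 122 and 165 in 2C, and 392, 398 and 289 in 4C, which did not pass the test (log2 difference -1.10, SE 0.507, adjusted p = 0.551). Added together, the RPL15 entries came to 298 and 511 RPKM in 2C and to between 222 and 410 in the neighbours, so the stages overlapped, and the log2 difference of the sum was 0.29 (adjusted p = 1.0). Reads of similar copies can be divided between entries by the counting, which was not tested here. The rise of RPL15 was seen in 1 entry, that on chromosome 11, and not in the sum. Without 2C library 2 this entry had an adjusted p of 0.102.

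NDUFA1 encodes a subunit of respiratory complex I. Its entry on chromosome 1 spans 317 bp and read 1.74 and 16.3 RPKM in 2C, at most 0.318 in PN and 0 in every 4C library (log2 difference 2.72, SE 0.595, adjusted p = 0.0371). Without 2C library 2 the log2 difference was 1.39 (adjusted p = 0.713), and leaving out any 1 of the 6 neighbours also lost the call (adjusted p = 0.0557 to 0.0739). The chromosome X entry of NDUFA1, 5159 bp long, read 37.1, 59.0 and 29.6 RPKM in PN, 14.4 and 21.6 in 2C, and 20.1, 26.1 and 12.6 in 4C. The sum of both overlapped between stages and its log2 difference was -0.15. Of the 61 symbols that the 91 called entries carry, 21 have more than 1 entry above 0 in the table.

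The named genes lower in 2C had varied roles. HSPA8, the constitutive 70-kilodalton heat shock cognate that folds new proteins and serves in selective autophagy, read 198, 151 and 238 RPKM in PN, 49.4 and 14.1 in 2C, and 211, 175 and 254 in 4C. The neighbours averaged 6.45-fold the 2C mean (log2 difference -2.88, SE 0.438, adjusted p = 0.00228; 0.124 without 2C library 2). MAP1LC3B, the LC3 protein that is coupled to lipid on autophagosome membranes, read 38.3, 46.6 and 59.4 RPKM in PN, 2.44 and 0.627 in 2C, and 12.9, 21.1 and 25.2 in 4C. Its log2 difference was -3.72 (SE 0.641, adjusted p = 0.00648; 0.174 without 2C library 2). TMEM129, a ubiquitin ligase of the endoplasmic reticulum that takes part in the disposal of misfolded proteins, read 19.4, 8.92 and 22.9 RPKM in PN, 0.627 and 0.0480 in 2C, and 15.06, 15.05 and 11.02 in 4C. TMEM129 was thus close to 0 in both 2C embryos and the neighbours averaged 45.6-fold the 2C mean (log2 difference -3.59, SE 0.382, adjusted p = 7.63e-05), and no setting lost the call.

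HACD3, a dehydratase in the elongation of very long fatty acids, read 7.54, 17.7 and 14.2 RPKM in PN, 0.138 and 0.446 in 2C, and 13.9, 10.7 and 8.88 in 4C. Its log2 difference was -3.31 (SE 0.485, adjusted p = 0.00157). LYG1, a goose-type lysozyme gene, was listed at 0 in both 2C libraries, at 26.5, 65.7 and 84.8 RPKM in PN and at 23.3, 7.76 and 17.3 in 4C, with a log2 difference of -4.87 (SE 0.552, adjusted p = 1.30e-04). HACD3 and LYG1 also kept their calls under every setting. PLA2G12B, a secreted member of the phospholipase A2 family, was lower in 2C at 7.55 and 3.94 RPKM against 23.6 to 39.2 in the 6 neighbours (log2 difference -2.25, SE 0.382, adjusted p = 0.00610; 0.155 without 2C library 2).

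CCDC59, a nuclear coiled-coil protein, was also nearly empty in 2C. It read 17.6, 39.1 and 11.7 RPKM in PN, 0 and 1.43 in 2C, and 19.7, 43.4 and 13.02 in 4C (log2 difference -3.84, SE 0.556, adjusted p = 0.00145). TFF3, a trefoil peptide known from mucus-secreting epithelia, read 90.7, 277 and 96.1 RPKM in PN, 11.4 and 6.61 in 2C, and 83.9, 50.1 and 47.3 in 4C (log2 difference -3.21, SE 0.539, adjusted p = 0.00575; 0.133 without 2C library 2). FSIP1, named for its binding to a protein of the sperm tail's fibrous sheath, had 3.20 and 0.145 RPKM in 2C against 5.86 to 35.2 in the neighbours (log2 difference -3.30, SE 0.583, adjusted p = 0.00776; 0.273 without 2C library 2). GRIN2A, a subunit of the NMDA receptor, had 1.97 and 1.34 against 9.90 to 16.3 (log2 difference -2.31, SE 0.372, adjusted p = 0.00370; 0.0829 without 2C library 2). OR7E24, an olfactory receptor family entry, had 2.71 and 0.496 against 8.48 to 35.6 (log2 difference -2.62, SE 0.480, adjusted p = 0.0101; 0.285 without 2C library 2). None of these overlapped between 2C and its neighbours, which was a condition for naming them.

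Genes of the transcription, division and energy machinery were called singly. The calls made up 1.11% of the RNA polymerase II and Mediator entries and 1.69% of the cell cycle entries, against 0.636% of all tested. POLR2B, a core subunit of RNA polymerase II, read 31.8, 9.82 and 14.3 RPKM in PN, 1.74 and 1.65 in 2C, and 7.13, 14.95 and 10.3 in 4C (log2 difference -2.39, SE 0.475, adjusted p = 0.0185). It was 1 of 90 entries tested of the list of RNA polymerase II and Mediator genes, and the only one called; without 2C library 1 its adjusted p was 0.0972 and without library 2 it was 0.176. ANAPC16, a subunit of the anaphase-promoting complex that marks cyclins for destruction, read 6.90, 3.41 and 9.86 RPKM in PN, 1.12 and 1.30 in 2C, and 10.7, 13.7 and 12.9 in 4C (log2 difference -2.16, SE 0.433, adjusted p = 0.0196; 0.114 and 0.155 without 2C library 1 or 2). ATP5F1, subunit b of the mitochondrial ATP synthase, read 41.1, 35.8 and 51.3 RPKM in PN, 17.2 and 4.19 in 2C, and 43.7, 41.2 and 47.9 in 4C (log2 difference -2.19, SE 0.482, adjusted p = 0.0387). ATP5F1 was the least settled of these, losing its call under 9 of the settings, among them without 2C library 2 (log2 difference -1.28, adjusted p = 0.659), without PN library 1 or 3 (0.0696 and 0.0834) and without 4C library 1, 2 or 3 (0.0750, 0.0590 and 0.0707). An entry for ACTB, cytoplasmic beta actin, was lower in 2C at 2.20 and 1.41 RPKM against 10.1 to 25.2 (log2 difference -2.70, SE 0.479, adjusted p = 0.00785; 0.146 without 2C library 2); its levels are low for actin, and related actin genes are similar in sequence.

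Of the IMMRNTR entries that were lower, IMMRNTR3840 on chromosome 3 had the largest log2 difference. It read 164, 205 and 94.1 RPKM in PN, 11.9 and 14.1 in 2C, and 112, 246 and 92.7 in 4C (log2 difference -3.36, SE 0.453, adjusted p = 7.36e-04). The entry named ANO2 (IMMRNTR2690) read 0.618 and 0 in 2C against 6.26 to 21.2 in the neighbours (log2 difference -3.18, SE 0.422, adjusted p = 7.36e-04). An Ensembl entry named ANO2, a calcium-activated chloride channel, lies on the same chromosome and read 2.45 and 0.823 RPKM in 2C and 0 to 3.08 in the neighbours, so these 2 entries did not move alike. IMMRNTR1521 read 1.15 and 1.52 RPKM in 2C against 8.86 to 33.5 (log2 difference -2.98, SE 0.533, adjusted p = 0.00855; 0.0793 and 0.0951 without 2C library 1 or 2).

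**Figure D3:**
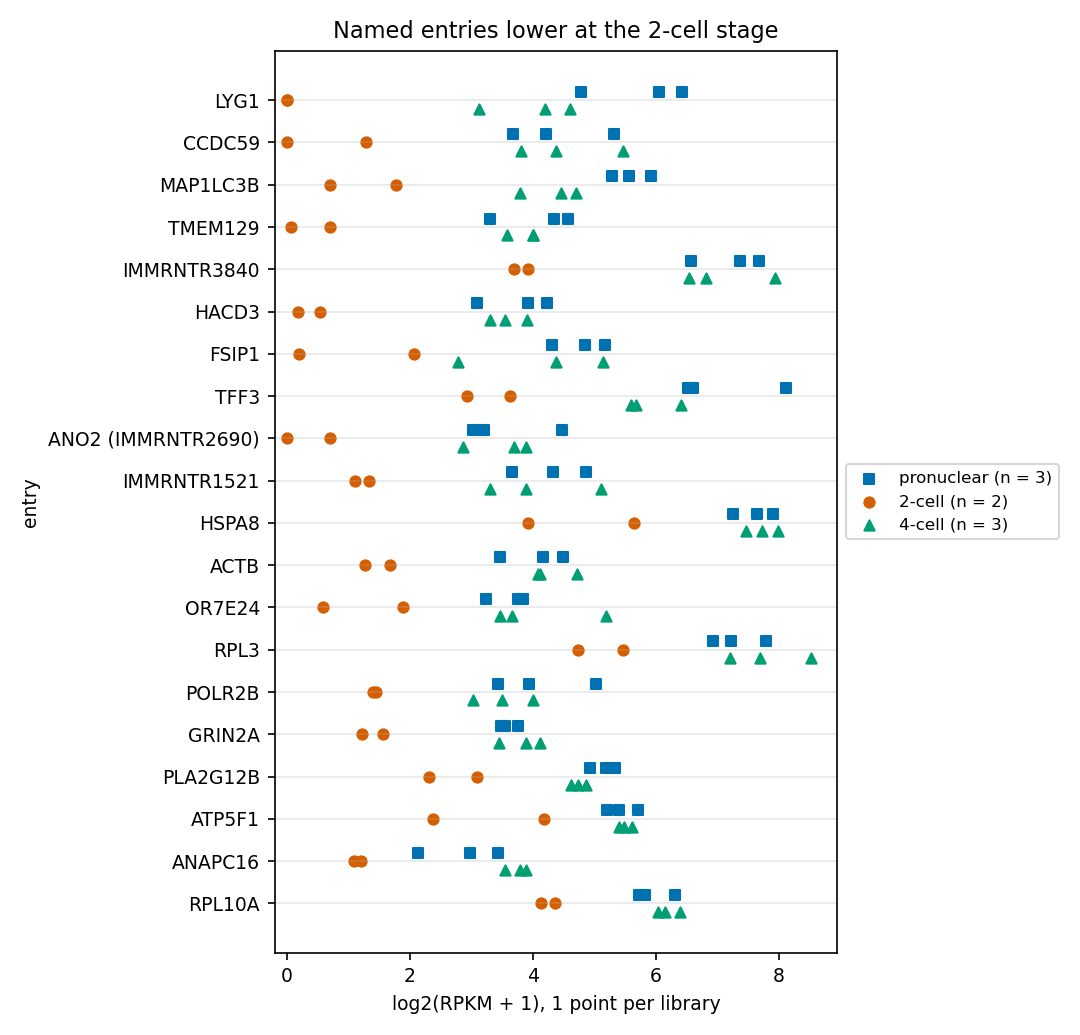
Points are single libraries on a log2(RPKM + 1) axis for the 20 named entries called lower in 2C: squares PN (n = 3), circles 2C (n = 2), triangles 4C (n = 3). In every row both circles lie to the left of all squares and triangles, at or near 0 for LYG1, TMEM129 and HACD3.

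In 2 entries without a symbol the fall was larger than in any named gene. They are named here after their values were seen. ENSMMUG00000022659 on chromosome 8 read 81.0, 103 and 55.5 RPKM in PN, 2.46 and 0 in 2C, and 213, 66.3 and 96.9 in 4C, with a log2 difference of -5.66 (SE 0.618, adjusted p = 9.22e-05). ENSMMUG00000007987 on chromosome 19 read 69.3, 60.2 and 85.6 RPKM in PN, 2.94 and 0.682 in 2C, and 189, 69.8 and 83.7 in 4C (log2 difference -5.07, adjusted p = 2.94e-05). Its level in the following stage was higher still, 894 and 712 RPKM in the 8-cell libraries, while all 7 oocyte libraries were at 1.28 to 2.71. Both entries kept the call without each of the 8 libraries.

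Most entries of cytosolic ribosomal proteins had a log2 difference below 0 in 2C. The 98 tested entries stand for 78 genes, some of which have more than 1 entry. Of 98 tested entries of cytosolic ribosomal proteins, 2 were called lower (RPL3 and RPL10A) and 1 higher (the short RPL15 entry), 3.06% where 0.636% of all entries were called. The median log2 difference of the 98 was -0.52, against -0.06 over all entries tested. Below 0 were 84 of the 98, against 8056 of all 14312 tested. In 25 of the 98 (25.5%) both 2C libraries were below all 6 neighbours, against 5.44% of all entries. After median-of-ratios scaling the median was -0.38 and the count 12 of 98 (12.2%, against 4.90%). Using only 1 of the 2C libraries the median was -0.33 (library 2, with -0.20 over all entries) or -0.70 (library 1, with 0 over all entries). Against PN the median was -0.53 and against 4C -0.58.

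The called genes lie at the far end of the list. RPL10A read 55.9, 78.3 and 52.3 RPKM in PN, 16.6 and 19.7 in 2C, and 82.7, 64.5 and 70.0 in 4C (log2 difference -1.82, SE 0.335, adjusted p = 0.0101; 0.0856 and 0.0780 without 2C library 1 or 2). RPL3 read 121, 221 and 149 RPKM in PN, 25.8 and 43.2 in 2C, and 369, 146 and 206 in 4C (log2 difference -2.46, SE 0.503, adjusted p = 0.0223; 0.195 and 0.103 without 2C library 1 or 2). Neither overlapped with its neighbours. RPL35 at 25.4 and 37.1 RPKM in 2C against 72.5 to 167, RPL35A at 281 and 255 against 445 to 1051, and RPL7 at 486 and 458 against 775 to 1268 lay below every neighbour as well but were not called (adjusted p = 0.261, 0.275 and 0.577). Summed over the list, ribosomal protein entries came to 12933 and 19627 RPKM in 2C, 18094 to 31181 in PN and 22126 to 31408 in 4C, so that 1 of the 2C libraries fell within the PN range. Ribosomal protein genes have many processed copies in mammalian genomes, and reads can be split among them.

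Of 74 tested entries for oxidative phosphorylation, 1 was called higher and 1 lower (2.70%, against 0.636% of all), the NDUFA1 and ATP5F1 entries described above; the median was -0.26, or -0.11 after scaling. HSPA8 was the only call among 79 entries of chaperones and heat shock proteins (1.27%, against 0.636% of all). The median of these 79 was -0.10, close to that of all entries. Of them, 13 (16.5%, against 5.44% of all entries) had both 2C libraries below the neighbours. After scaling these were 8 (10.1%, against 4.90%). Of 59 entries of cell cycle regulators, ANAPC16 was the only one called (1.69%, against 0.636% of all). No entry was called in any of the other 16 lists with tested members, which cover maternal RNA storage and decay, the subcortical maternal complex, zona and oocyte factors, spindle, DNA replication, histones, mitochondrial ribosome, translation factors, splicing, proteasome, chromatin modifiers, stress response, glycolysis, nuclear pores, germline factors and genome activation. Their medians lay between -0.24 and 0.14. Summed over lists, 51 of their 835 entries had an unadjusted p under 0.05 by limma, against 1237 of all 14312 (8.64%).

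Well-known maternal and embryonic genes did not pass the test. BTG4, an adaptor that brings the deadenylase to maternal mRNAs, read 2291, 1715 and 2356 RPKM in PN, 2252 and 1790 in 2C, and 2002, 1918 and 2046 in 4C, a flat course (log2 difference -0.02, SE 0.505, adjusted p = 1). CCNB1, cyclin B1, overlapped between all 3 stages at 770 and 439 RPKM in 2C and 442 to 948 in the neighbours. DNMT1, the maintenance DNA methyltransferase, read 401, 326 and 456 RPKM in PN, 536 and 997 in 2C, and 315, 435 and 338 in 4C. Both 2C embryos were above the 6, yet with a log2 difference of 0.96 (SE 0.377) DNMT1 missed the threshold (adjusted p = 0.4002).

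ZP3, a coat protein of the egg, read 256 and 28.0 RPKM in 2C against 112 to 561, and ZAR1, a factor that holds maternal mRNA, read 20.0 and 4.33 against 8.40 to 45.6. For both genes 2C library 2 was below all the others and library 1 within their range. NLRP5, of the subcortical maternal complex, overlapped as well at 64.1 and 26.4 RPKM in 2C and 16.4 to 52.5 in the neighbours. The genome activation genes of the panel were each below 10 RPKM in all 8 libraries. ZSCAN4 read 0.0980 and 0.719 RPKM in 2C and 0.199 to 4.58 in the neighbours, and DUXA read 1.06 and 3.62 against 0 to 6.30. LEUTX (IMMRNTR1244) read 0 and 0.347 in 2C, 0 to 0.940 in PN and 5.52, 9.04 and 7.24 in 4C, with an adjusted p of 0.663 for 2C against both stages and 0.211 for 2C against 4C.

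The wider genome activation list summed to 3092 and 2935 RPKM in 2C, 1579 to 2531 in PN and 500.2 to 2410 in 4C, so both 2C sums were above the 6 others. Most of this was KPNA7, an importin alpha of oocytes and early embryos that carries proteins into the nucleus, at 2898 and 2772 RPKM in 2C and 439 to 2499 in the neighbours (log2 difference 0.81, SE 0.676, adjusted p = 0.892). None of the 21 tested entries was called by limma, 5 had an unadjusted p under 0.05 (23.8%, against 8.64% of all entries), and 3 had both 2C libraries above the neighbours (14.3%, against 3.28%). The latter were KPNA7 and a pair of TRIM49 entries. Those with an unadjusted p under 0.05 went both ways. TRIM49 entries had positive log2 differences, and RFPL4B and ALPPL2 negative ones (-1.64 and -0.83). RFPL4B read 0 and 1.78 RPKM in 2C, 0, 0.345 and 0 in PN, and 40.5, 11.4 and 28.1 in 4C. It was thus lower in 2C than in 4C only. ALPPL2 was low throughout, at 0 in both 2C libraries and at most 2.00 RPKM in the neighbours. One of the TRIM49 entries (ENSMMUG00000010218), named here after its values were seen, read 15.3, 21.7 and 17.2 RPKM in PN, 110 and 92.2 in 2C, and 22.6, 14.9 and 27.5 in 4C. Its log2 difference was 2.32 (SE 0.544) and it missed the threshold (adjusted p = 0.0596). TRIM49 has 4 tested entries in the table, near copies between which reads can be split.

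The rule of a departure from both neighbours was met by 38 entries (0.266%), 12 higher (0.0838%) and 26 lower (0.182%) in 2C, which were called against PN, against 4C and against their mean with 1 sign. These comparisons share the 2C libraries. Among the named genes VTCN1 had a log2 difference of 4.59 from PN and 5.46 from 4C, RPL15 (chromosome 11) 4.15 and 4.33, and CSH-2 3.78 and 4.56. On the lower side LYG1 stood at -5.76 from PN and -3.98 from 4C, CCDC59 at -3.76 and -3.91, TMEM129 at -3.70 and -3.48, HSPA8 at -2.81 and -2.94, and HACD3 at -3.39 and -3.23. ACBD3 passed against 4C only (log2 difference 2.51, adjusted p = 0.0182; 1.86 and 0.104 against PN). MAP1LC3B and TFF3 passed against PN and narrowly missed against 4C (adjusted p = 0.0604 and 0.0590). Without PN library 3 the count was 25. A fit of only the 8 libraries left 0 such entries by limma, and 6 higher and 8 lower for the comparison with both stages together.

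Levels at the other stages put these genes in sequence. In the 7 oocyte libraries VTCN1 read 58.3 to 114 RPKM (median 91.8), close to the 70.6 and 85.9 of the 2C embryos, and in the 8-cell libraries it read 20.2 and 12.2. CSH-2 read 40.2 to 86.1 RPKM in oocytes, the chromosome 11 RPL15 entry 272 to 419, ACBD3 32.0 to 99.3 and FLJ43663 11.03 to 25.6. In each of these 5 all PN and 4C embryos were below every oocyte, and the 2C embryos were within the oocyte range, except 1 of the 2C embryos for RPL15. Several lower genes had the mirror course: in oocytes LYG1 read 0 to 2.16 RPKM, TMEM129 0.545 to 1.18, HACD3 1.56 to 3.94 and MAP1LC3B 1.27 to 6.20, all below every PN and 4C value. Of the 31 entries called higher, 16 had all 7 oocytes above all PN and 4C embryos, against 583 of all 14312 tested. Of the 60 called lower, 32 had all oocytes below them, against 224 of all tested. The PN and 4C values also chose these entries, so the counts are levels and not a test. HSPA8 was 36.0 to 141 RPKM in oocytes and 524 and 406 at the 8-cell stage.

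Other lower genes did not follow that course. POLR2B was at 19.8 to 47.4 RPKM in oocytes, GRIN2A at 9.83 to 12.3 in GV and MI but 0.815 to 3.82 in MII oocytes, and PLA2G12B at 13.4 to 70.3 in oocytes. The 2C embryos were thus below every oocyte for POLR2B and PLA2G12B, and below the GV and MI oocytes for GRIN2A. Over the 31 entries called higher, the median of the stage means of log2(RPKM + 1) was 2.32 in GV, 2.56 in MI and 2.06 in MII oocytes, 0.51 in PN, 2.66 in 2C, 0.37 in 4C and 1.46 in 8-cell embryos. Over the 60 called lower it was 1.60, 1.68 and 1.15 in the oocyte stages, 3.55 in PN, 0.90 in 2C, 3.49 in 4C and 0.66 at the 8-cell stage. The medians of all tested entries stayed between 1.32 and 2.01 over these stages. The PN, 2C and 4C medians are fixed by the choice of entries; those of the other stages are not, but any of them set against PN or 4C reuses the same libraries, so they are given as levels with no test.

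**Figure D4:**
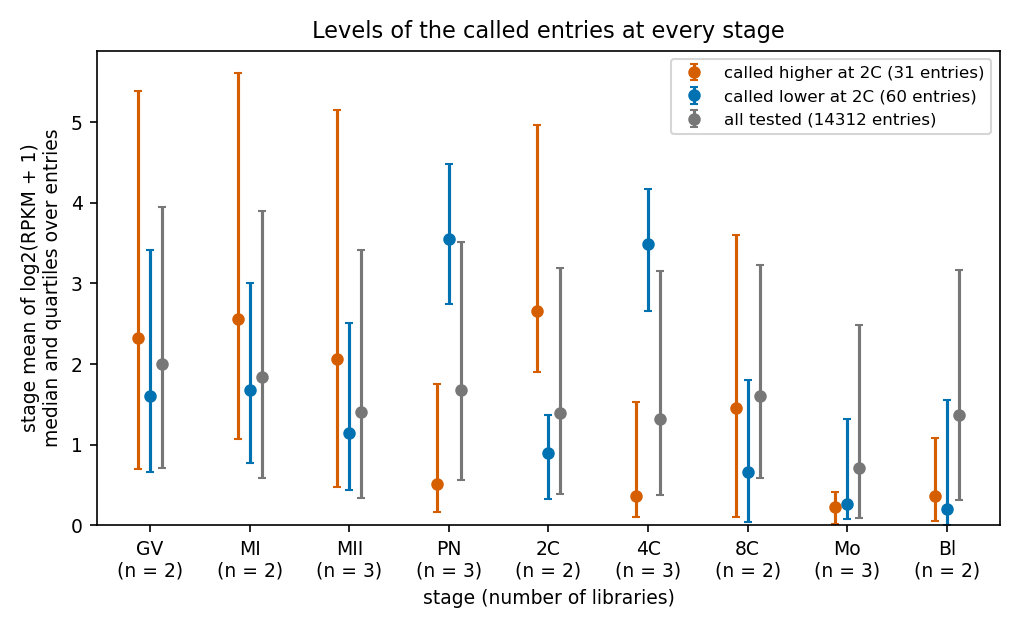
For each of the 9 stages, dots give the median and bars the quartiles, over entries, of the stage mean of log2(RPKM + 1), for the entries called higher in 2C, those called lower and all tested. The PN, 2C and 4C medians follow from how the entries were chosen (0.51, 2.66 and 0.37 for the higher set, 3.55, 0.90 and 3.49 for the lower); the other stages are shown as levels.

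The called entries differed from the rest of the table in kind. IMMRNTR entries made up 38.7% of those higher and 25% of those lower, against 15.7% of all tested, and 32.3% and 31.7% carried no symbol, against 12.5%. Their median span was 14556 bp (higher) and 10324 bp (lower), against 21736 bp for all tested. A mean of 10 RPKM in the higher group was reached by 11 of the 31 (35.5%) and 31 of the 60 (51.7%), against 27.0% of all tested. These shares follow in part from the calls. The smallest called log2 difference was 1.29 in size, which keeps the higher group off the floor. Listed at 0 in both 2C libraries were 7 of the 60 (11.7%), close to the 12.2% of all tested. Chromosome 10 held 12 of the 91 among 634 tested entries (1.89%), chromosome 20 held 7 among 504 (1.39%) and chromosome 7 held 10 among 949 (1.05%), against 0.636% of all. The X chromosome held 0 among 564. Some calls lay within 100 kb of another call of the same direction: 2 higher entries on chromosome 20 and 4 lower on chromosome 10, including a pair named GUSBP11. Such neighbours are counted here as separate entries. Only 1 of the 91, GJA4, a gap junction protein found between follicle cells and oocyte, was also called between 4C and PN: it read 4.69, 2.82 and 4.68 RPKM in PN, 0 in both 2C libraries, and 1.20, 0.506 and 0.290 in 4C.

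Markers of other cells were examined beside these results. Blood cell markers summed to at most 0.237 RPKM in every one of the 8 libraries, with 8 of 12 at 0 throughout. Cumulus and granulosa markers summed to 15.6 and 29.0 in 2C, 16.5 to 17.8 in PN and 11.2 to 33.4 in 4C; 4 of 17 ever reached 1 RPKM, led by TNFAIP6 (20.0 and 13.1 in 2C, 1.45 to 25.1 in the neighbours) and HAS2 (5.22 and 0.743 in 2C, 0.511 to 13.1 in the neighbours), while FOXL2, AMHR2, INHA and STAR were at 0 in all 8. Sperm markers summed to 12.4 and 29.4 in 2C against 7.43 to 18.6 in PN and 6.74 to 12.4 in 4C, mostly from ODF2 and PHF7, which other cells also express, with PRM1, TNP1 and TNP2 at 0. The protamine gene PRM2 read 2.36 in 2C library 2 and 0 in the other 7, and AKAP4 read 0.603 in 2C library 1 and at most 0.0330 elsewhere. Markers of trophectoderm and later lineages moved with the stage, with sums of 60.1 and 80.8 in 2C, 33.9 to 51.9 in PN and 24.98 to 31.3 in 4C. Most of this was PDGFRA at 38.6 and 63.0 RPKM in 2C and 18.4 to 39.6 in the neighbours, and POU5F1 at 10.8 and 7.73 against 0.376 to 5.29. CDX2 read 3.20 and 1.97 in 2C and at most 1.47 in the neighbours, and both POU5F1 and CDX2 were above all 6 in both 2C libraries. GATA3 and KRT19 were at most 0.290 in all 8, and no entry of the list was called. The part of this in the results above was not tested.

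Calls rested more on 2C library 2 than on library 1. Of the 91, 50 kept the call without 2C library 1 and 24 without 2C library 2, while 34 kept it in neither case. The call was held by 17 (5 higher, 12 lower) with each of the 8 libraries left out in turn. Besides VTCN1, LYG1, TMEM129, HACD3, CCDC59, FLJ43663, IMMRNTR3840, IMMRNTR4336, ANO2 (IMMRNTR2690) and the 2 entries without symbols given above, these were ENSMMUG00000009285, ENSMMUG00000012515, ENSMMUG00000029556 and SLC35F4 (IMMRNTR290) on the lower side, and ENSMMUG00000029073 and FAM138F (IMMRNTR619) on the higher. In a fit of the 8 libraries alone, 12 of the 91 kept the call, 4 higher and 8 lower. None of the 91 changed sign when a library was left out, but 5 did when entries sharing a symbol were summed: NDUFA1, LINC00923 (IMMRNTR4201), KRT80 (IMMRNTR4226), ARL1 (IMMRNTR6049) and CDK5RAP3 (IMMRNTR5482).

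**Figure D5:**
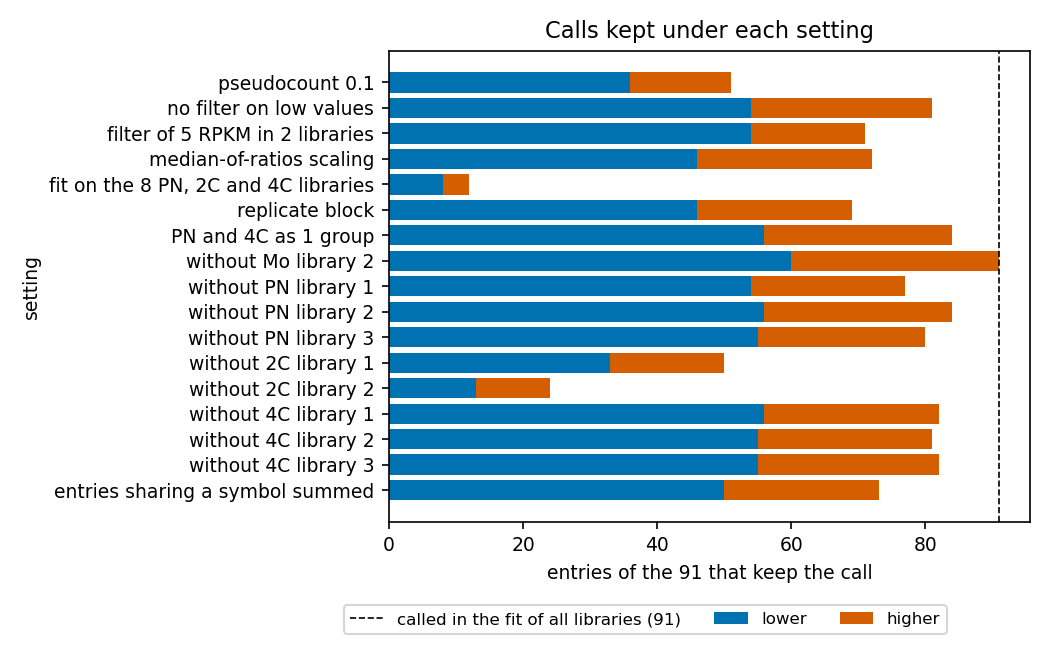
Bars give how many of the 91 called entries kept their call under each of 17 settings, split into lower and higher, and the dashed line marks 91. The fewest, 12 and 24, remained in the fit of only 8 libraries and without 2C library 2.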

How the data were processed

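The deposited table holds RPKM values that the authors computed for 35468 entries (28595 ENSMMUG, 6873 IMMRNTR) in 22 libraries. Per the labels' protocols, RNA in whole-cell lysates was copied with a SMARTer Ultra Low Input kit, followed by TruSeq DNA library preparation. Per the submitters' processing notes the build is Mmul 8.0.1, but the file names none, so positions are printed as deposited. Aligner, counting and normalization steps are not given in the sources used here. Depth was estimated from low values of entries under 200 bp: 175 of 200 (87.5%) lay 0.05 reads or less from a whole count. Symbols came from a name table for 15556 ENSMMUG identifiers and otherwise from the file (6832).

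Entries with at least 1 RPKM in 2 libraries were tested with limma 3.58.1 (R 4.3.3) on log2(RPKM + 1), a scale that understates changes of low genes. All 22 libraries entered the model, each stage with its own mean, which leaves 13 residual degrees of freedom; empirical Bayes moderation used the trend and robust options. P-values are 2-sided and adjusted by Benjamini-Hochberg over 14312 entries (12060 ENSMMUG, 2252 IMMRNTR). On simulated data, 40% of changes of 2 log2 units and 74% of changes of 3 were recovered, with 2.56% of calls false, so an uncalled gene can have changed. Each simulated entry had the same spread at every stage, as the model assumes, so these rates do not cover a stage that varies more. The changed entries all had a mean log2(RPKM + 1) above 3 in PN and 4C, and the noise was normal with no floor. These rates therefore do not describe lower entries, which include most of those called higher in 2C.

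Named genes are ENSMMUG entries with a symbol that were called, did not overlap and reached a mean of 10 RPKM in the higher group, up to 15 per direction (4 met this on the higher side), plus up to 2 called members of each of 22 pathway lists, 3 IMMRNTR entries per direction, and a panel of 10 genes, of which 9 were matched. The members, lists and tests were chosen with earlier results of these data known. Of the pathway lists, that of mitochondrial transcripts had no entry in the table. Alternatives were a pseudocount of 0.1, no filter, a filter of 5 RPKM, median-of-ratios scaling (5405 reference entries), a fit of 8 libraries, the replicate number as block, PN and 4C as 1 group, entries of 1 symbol summed, and leaving out Mo library 2 or each of the 8 libraries. Other tools were Python 3.11.15, numpy 2.4.6, pandas 2.3.3 and matplotlib 3.10.9.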

Additional observations from a re-analysis of the deposited data

How the results depend on the processing

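Of the 28 named entries called against both neighbours, 5 kept the call under every setting: LYG1, TMEM129, HACD3, FLJ43663 and VTCN1. Counts of calls moved more. The 31 higher entries became 18 with a pseudocount of 0.1, 49 without a filter, 20 with a filter of 5 RPKM, 6 in the fit of 8 libraries and 47 without Mo library 2, a morula library with few detected entries, and ranged from 25 to 67 with 1 of the 8 libraries left out. The 60 lower became 8 in the fit of 8 libraries and 101 without Mo library 2, with a range of 19 to 68. For 2C against PN (67) the counts were 37 with a pseudocount of 0.1, 0 in the fit of 8 libraries and 119 without Mo library 2, and 35 to 93 with 1 library left out. For 2C against 4C (82) they were 52, 0 and 124 in the same settings, and 46 to 100. For 4C against PN (14) they were 8 with the 5 RPKM filter, 5 with scaling, 0 in the fit of 8 libraries and 26 without Mo library 2, and 1 to 26 with 1 left out. The 38 entries departing from both neighbours became 0 in the fit of 8 libraries and 60 without Mo library 2, and 25 to 52 with 1 left out. At an unadjusted p under 0.05 the fit of 8 libraries held 1297 entries for 2C against PN, 1266 for 2C against 4C and 1295 for 4C against PN. That fit has fewer samples to estimate the spread; for the other settings the cause was not tested. Summing entries that share a symbol kept 73 of the 91 calls and turned the sign of 5, among them the named NDUFA1 (-0.15) and the entry named LINC00923 (-0.15). With median-of-ratios scaling, 30 entries were called higher and 46 lower, and 72 of the 91 kept the call. Whether the replicate numbers pair the embryos cannot be told. Over 7 same-numbered pairs the correlation of deviations ran from -0.003 to 0.324, with 2 over 0.1, both between PN and 2C (0.204 and 0.324). With 2 libraries at 2C the deviations of one mirror those of the other, so these values cannot decide it. With the replicate number as a block the counts were 24 higher and 50 lower against both neighbours, 53 for 2C against 4C, 9 for 4C against PN and 24 departing from both. With 2 embryos at the 2-cell stage and 7.28 M to 14.49 M reads per library, a low entry listed at 0 may have been present below detection.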
